A study of Rattus norvegicus with 23 samples.

Results

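Gene expression of 7 genes of Fc receptors and phagocytosis was followed in the CA3 field of the hippocampus of young and aged rats: Fcgr2b, Fcgr3a, Mertk, Axl, Gpnmb, Lgals3 and Cd68. They were found by their gene symbol in the annotation of the array, which gave 8 probe sets of 31099, 1 per gene and a second for Mertk. The 7 genes stand among 14217 genes named on the array. Of these probe sets, 4 (Fcgr2b, Mertk, Axl and Gpnmb) passed the filter on low values (log2 expression of 4 or more on 6 or more arrays), as did 14647 probe sets in all. The other 4 (Fcgr3a, Lgals3, Cd68 and the second probe set of Mertk) are given by their values only.

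The animals were untreated male Long-Evans rats, an outbred strain, and 1 array was hybridised per animal. Young rats were 6 months old (n = 9). Aged rats were 24 to 26 months old and were divided by a learning index from the Morris water maze, a test of spatial memory. The index of aged unimpaired rats (n = 6) fell in the young range, and that of aged impaired rats (n = 8) was worse. The study therefore allowed 3 comparisons, of each aged group with the young and of the aged groups with each other. A comparison of both aged groups together with the young was added. The aged groups were set against the same young animals, so their differences from the young share that group.

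Phagocytes recognise their targets through receptors. Fc receptors bind the constant part of antibodies that coat a target. Activating Fc receptors signal through a shared chain, Fcer1g, and the inhibitory receptor Fcgr2b restrains that signal. The TAM receptors Tyro3, Axl and Mertk are tyrosine kinases that bind the ligands Gas6 and Pros1, which bridge to phosphatidylserine on dying cells. In the brain, Mertk and Axl are known from microglia, and Mertk is also known from astrocytes that engulf synapses. Gpnmb is a transmembrane glycoprotein of phagosomes and lysosomes, Cd68 is a lysosomal membrane protein of macrophages, and Lgals3 (galectin-3) is a sugar-binding protein of activated phagocytes.

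In the RefSeq annotation of rat assembly GRCr8, Fcgr2b (chr13:85725897-85740517) and Fcgr3a (chr13:85782636-85792656) lie near each other on chromosome 13. Gpnmb lies at chr4:79341128-79362366, Mertk at chr3:136391936-136498366 and Axl at chr1:90392864-90424123. Lgals3 lies at chr15:23099795-23111731 and Cd68 at chr10:54880562-54882441. RefSeq promoter windows, 250 bases before to 50 bases after a transcription start, were at hand for 5 of the 7 genes. For Gpnmb that start is the 5' end of the gene as given above, but for Mertk it lies 638 bases and for Axl 114 bases inside the gene. The Mertk window therefore lies wholly downstream of the gene's 5' end, and no sequence before that end was searched for Mertk. Those of Gpnmb, Mertk and Axl are shown because these genes, all above the filter, differ in their response to age below, from the largest fold to a difference that did not pass the test. Capitals mark the motifs found. The Gpnmb window is chr4:79340878-79341177 on the plus strand, the Mertk window chr3:136392324-136392623 on the plus strand, and the Axl window chr1:90423960-90424259 on the minus strand. Distances below are from the start each window uses.
Gpnmb: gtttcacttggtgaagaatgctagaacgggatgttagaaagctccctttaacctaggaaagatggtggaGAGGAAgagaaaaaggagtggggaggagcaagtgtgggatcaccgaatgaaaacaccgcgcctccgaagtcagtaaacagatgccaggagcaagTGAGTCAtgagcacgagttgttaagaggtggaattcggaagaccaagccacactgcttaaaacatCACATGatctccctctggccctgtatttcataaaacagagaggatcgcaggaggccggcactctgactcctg
Mertk: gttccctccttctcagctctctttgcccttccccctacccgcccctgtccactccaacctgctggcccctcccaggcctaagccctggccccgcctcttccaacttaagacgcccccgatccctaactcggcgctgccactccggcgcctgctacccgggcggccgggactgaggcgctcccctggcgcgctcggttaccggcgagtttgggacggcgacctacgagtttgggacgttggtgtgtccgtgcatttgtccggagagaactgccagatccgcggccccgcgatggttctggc
Axl: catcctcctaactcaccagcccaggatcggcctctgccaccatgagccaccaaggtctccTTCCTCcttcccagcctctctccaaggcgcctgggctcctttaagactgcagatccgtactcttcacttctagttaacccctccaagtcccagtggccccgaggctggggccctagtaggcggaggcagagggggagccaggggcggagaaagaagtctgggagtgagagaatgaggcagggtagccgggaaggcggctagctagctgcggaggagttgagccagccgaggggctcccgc

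Both strands were searched for 5 motifs of factors known from macrophages: the PU.1 site GAGGAAGT, the ETS core GAGGAA, which the PU.1 site contains, the E-box CACGTG, the M-box core CATGTG, and the AP-1 site TGANTCA. Gpnmb held an ETS core 181 bases upstream of the start, an AP-1 match (TGAGTCA) 87 bases upstream, and an M-box core on the minus strand (CACATG) 22 bases upstream. Axl held an ETS core on the minus strand (TTCCTC) 190 bases upstream. The Mertk window, around its inner start, held none of the 5. The windows of Cd68 and Fcgr3a, not printed, also held matches. Cd68 held AP-1 matches 205 and 80 bases upstream, an M-box core 185 bases upstream and an ETS core 27 bases upstream, among others. Fcgr3a held a PU.1 site on the minus strand 56 bases upstream, and an M-box core after the start. Both genes lay under the filter, so no relation of motifs to the response to age is read. Of 33469 rat promoters of the same length, 27.6% held the ETS core, 14.0% the M-box core, 7.33% the AP-1 site, 6.42% the E-box and 2.42% the PU.1 site. These matches describe letters in the windows and show no binding.

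The mean correlation of each array with the others was 0.9959 to 0.9974, lowest for aged impaired replicate 2 and next lowest for aged unimpaired replicate 6 (0.9964). The gap between a pair of control rows of the array was used as a rough reading of RNA quality. It was 2.02 to 2.27 in the aged impaired (median 2.15) and 2.12 to 2.39 in the aged unimpaired (median 2.3). In the young it was 2.08 to 2.46 (median 2.2). The ranges overlapped, but the median was lowest in the aged impaired and highest in the aged unimpaired. Calls with this gap as a covariate are given in the last section. Of 9 tested markers of CA3 neurons, 1 was called higher and 4 lower in the aged impaired than in the young (median difference -0.21), and 0 of 9 in the aged unimpaired (median -0.12, 2 with an unadjusted p under 0.05 in limma). Over 8726 genes, each by its brightest probe set, 10.2% were called in the aged impaired against the young and 2.03% in the aged unimpaired. The mean level of the CA3 markers lay between 10.13 and 10.69 over all arrays. Markers of neighbouring tissue spread more widely. For 6 CA1 markers the mean ran from 6.34 to 7.88 in the aged impaired and from 6.58 to 7.05 in the aged unimpaired. In the young it ran from 5.4 to 7.63. Against the young, limma called 0 of the 6 in either aged group (median differences 0.4 and 0.2). An unadjusted p under 0.05 was found for 2 and 0. The part of neighbouring tissue in the differences was not tested. The RNA came from whole dissected tissue, so fewer cells of a type and less RNA per cell cannot be told apart.

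Gpnmb, Fcgr2b and Mertk were higher in both aged groups than in the young, and Axl did not pass the test in either. Gpnmb was 3.08-fold higher in the aged impaired and 2.34-fold higher in the aged unimpaired. Mertk was 1.3-fold and 1.4-fold higher. None of the 4 tested genes was called between the aged groups. Fcgr2b reached a log2 value of 4 on 1 of 9 young arrays, so it passed the filter only through the aged groups, and its rises are left out of the counts here. Of the other 3 (Gpnmb, Mertk and Axl), 2 rose and 0 fell in the aged impaired against the young, where 3.88% of all 14647 tested probe sets rose and 5.88% fell. The same 2 rose and 0 fell in the aged unimpaired against the young, where 1.37% of all rose and 0.696% fell. Between the aged groups, limma called 0 of all 4 genes, and 0 of 4 had an unadjusted p under 0.05, where 0.778% of all probe sets were called. In both aged groups together against the young, 2 of the 3 rose, where 3.34% of all did. The median difference over the 3 was 0.37 (log2) in the aged impaired and 0.48 in the aged unimpaired, against -0.02 and 0 over all tested probe sets. When each array was centred on its median, the split over all probe sets in the aged impaired moved from 568 rises among 1429 calls to 486 among 2352, and Gpnmb, Fcgr2b and Mertk were still called higher.

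**Figure D1:**
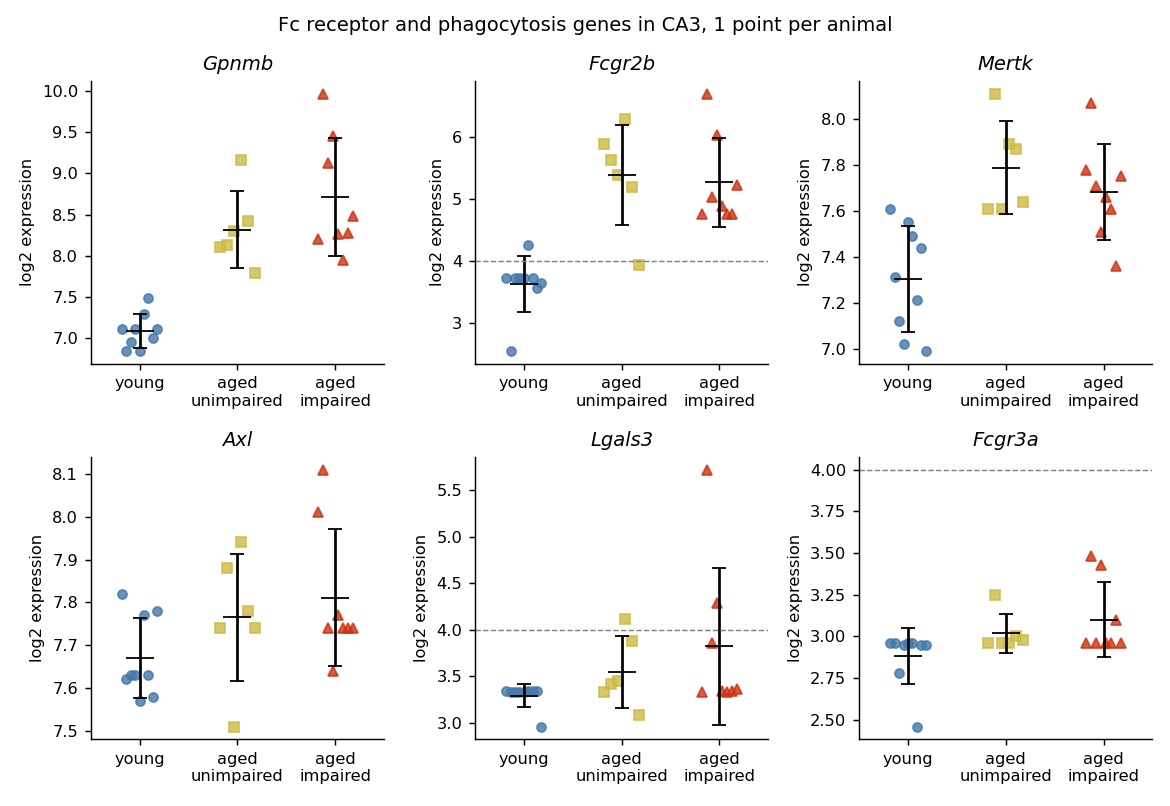
Log2 expression (y axis) of Gpnmb, Fcgr2b, Mertk, Axl, Lgals3 and Fcgr3a in each animal (points), by group (x axis), with the group mean and SD as bars and the level of 4 used by the filter dashed. For Gpnmb, all 8 aged impaired and all 6 aged unimpaired animals lie above the highest young animal at 7.49, and for Fcgr3a all 23 lie below 4.

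Fcgr2b, the inhibitory receptor for IgG (probe set 1371079_at), lay near the limit of measurement in young CA3. In the aged impaired its log2 expression was 4.75 at the lowest, 4.96 at the median and 6.69 at the highest. The aged unimpaired had 3.94, 5.51 and 6.29, and the young 2.55, 3.72 and 4.26. Only 1 of the 9 young animals reached the level of 4 that the filter used, and 4 young arrays shared the same value to 5 decimals. Every young animal lay below all 8 aged impaired animals and below 5 of 6 aged unimpaired animals, and the exception, aged unimpaired replicate 8, lay among the young. Over all tested probe sets, 0.594% had every aged impaired animal above every young one, from which nothing is read for Fcgr2b, since it passed the filter through the aged arrays. Group means were 5.27 ± 0.72 (SD, n = 8), 5.39 ± 0.81 (SD, n = 6) and 3.63 ± 0.45 (SD, n = 9). The difference from the young was 1.64 ± 0.3 (SE) in the aged impaired (limma adjusted p = 0.00196). It was 1.76 ± 0.33 in the aged unimpaired (limma adjusted p = 0.00612). Since the young mean lay under a log2 value of 4, the fold is a bound against that level, at least 2.41-fold higher in the aged impaired and at least 2.62-fold higher in the aged unimpaired. These bounds set the group means against 4 and leave out the spread among animals. The aged groups differed by -0.12 ± 0.33 (aged impaired minus aged unimpaired, 95% interval -0.81 to 0.57, limma adjusted p = 0.918).

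Fcgr3a, an activating IgG receptor (1373523_at), stayed under the filter on every array. Its log2 expression ran from 2.96 to 3.48 in the aged impaired, from 2.96 to 3.25 in the aged unimpaired and from 2.46 to 2.96 in the young. The highest values belonged to aged impaired replicates 2 (3.48) and 4 (3.43), and 12 of the 23 arrays shared 1 value. At this level the array gives no test of a difference. Probe sets annotated to several genes, which include those of Fcgr2a, were left unnamed, and whether RNA of related Fc receptors binds the Fcgr2b probes was not tested.

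Mertk, a receptor for dying cells and synapses (1390389_at), had a log2 expression of 7.36 at the lowest, 7.69 at the median and 8.07 at the highest in the aged impaired. The same values were 7.61, 7.75 and 8.11 in the aged unimpaired and, in the young, 6.99, 7.31 and 7.61. The groups overlapped, with every young animal below 5 of 8 aged impaired and 4 of 6 aged unimpaired animals. Group means were 7.68 ± 0.21 (SD, n = 8), 7.79 ± 0.2 (SD, n = 6) and 7.31 ± 0.23 (SD, n = 9). Mertk was higher than in the young by 0.37 ± 0.1 (SE, 1.3-fold, limma adjusted p = 0.023) in the aged impaired. It was higher by 0.48 ± 0.11 in the aged unimpaired (1.4-fold, limma adjusted p = 0.0224). The aged groups differed by -0.11 ± 0.11 (95% interval -0.34 to 0.12, limma adjusted p = 0.711). These calls lay close to the threshold. Without aged impaired replicate 2, the first difference was 0.32 with an adjusted p of 0.0504 in limma. Without aged unimpaired replicate 2 or replicate 6, the second was 0.42 and 0.46, with adjusted p of 0.0589 and 0.0567 in limma. Neither difference passed when no filter was used (limma adjusted p = 0.0595 and 0.0671), nor did the first with the RNA quality gap as a covariate (0.35, limma adjusted p = 0.0593). In both aged groups together Mertk rose by 0.43 ± 0.09 (1.35-fold, limma adjusted p = 0.00585), and this call held in every setting. The second Mertk probe set (1369382_at) lay near the floor of the scale, between 2.33 and 2.81 over all animals, with 17 arrays at 1 value, and was not tested.

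Axl, the TAM receptor of activated phagocytes and vessels (1398347_at), had a log2 expression of 7.64 at the lowest, 7.74 at the median and 8.11 at the highest in the aged impaired. The aged unimpaired had 7.51, 7.76 and 7.94, and the young 7.57, 7.63 and 7.82. The groups overlapped widely, with every young animal below 2 of 8 aged impaired and 2 of 6 aged unimpaired animals. The difference from the young was 0.14 ± 0.06 (SE, 95% interval 0.01 to 0.27, limma adjusted p = 0.16) in the aged impaired. In the aged unimpaired it was 0.09 ± 0.07 (interval -0.05 to 0.24, limma adjusted p = 0.523). The unadjusted interval in the aged impaired leaves out 0, but the value did not pass adjustment over all probe sets. Axl had 1 value to 5 decimals on 5 arrays, as at least 5 arrays did for 33.2% of tested probe sets.

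Gpnmb, the phagosomal and lysosomal glycoprotein (1368187_at), changed the most of the 3 genes whose fold could be measured. In the aged impaired its log2 expression was 7.95 at the lowest, 8.38 at the median and 9.96 at the highest. The aged unimpaired had 7.79, 8.22 and 9.16, and the young 6.85, 7.11 and 7.49. Every young animal lay below all 8 aged impaired and all 6 aged unimpaired animals, which for the aged unimpaired held for 0.649% of all tested probe sets. Group means were 8.71 ± 0.71 (SD, n = 8), 8.32 ± 0.46 (SD, n = 6) and 7.09 ± 0.21 (SD, n = 9), so the aged animals also spread more widely. Gpnmb was higher by 1.62 ± 0.23 (SE, 95% interval 1.15 to 2.1, limma adjusted p = 0.000285) in the aged impaired. The aged unimpaired were higher by 1.23 ± 0.25 (0.71 to 1.75, limma adjusted p = 0.0107). The aged groups overlapped and differed by 0.4 ± 0.26 (interval -0.13 to 0.92, limma adjusted p = 0.501). The order of the levels was thus aged impaired, aged unimpaired and young for Gpnmb, and aged unimpaired, aged impaired and young for Fcgr2b and Mertk. In each case limma did not call a difference between the first and second in the order. The intervals included 0 but also wider differences, for Gpnmb up to 0.92.

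Lgals3 (1386879_at) reached a log2 value of 4 on 3 of 23 arrays and was not tested. In the aged impaired it was 3.33 at the lowest, 3.35 at the median and 5.72 at the highest, in the aged unimpaired 3.08, 3.43 and 4.12, and in the young 2.96, 3.33 and 3.34. The 3 arrays were aged impaired replicates 2 (5.72) and 4 (4.29) and aged unimpaired replicate 6 (4.12), while most other aged animals lay near the young. Cd68 (1375010_at) stood at 2.19 on all 23 arrays, the lowest value of the table, so these arrays carry no information on it.

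**Figure D2:**
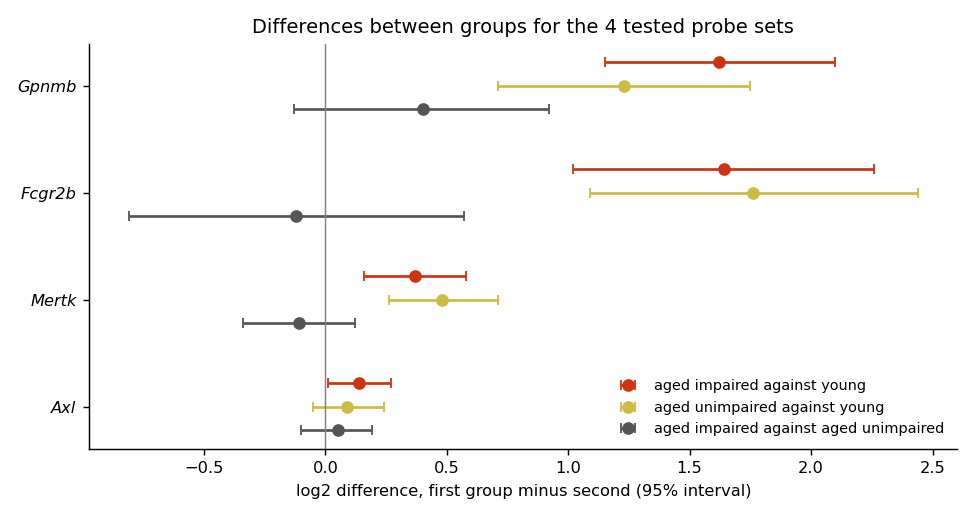
Log2 difference (x axis) of Fcgr2b, Mertk, Axl and Gpnmb in each comparison, with the 95% interval of the limma fit as bars. Both differences from the young are above 0 for Fcgr2b, Mertk and Gpnmb, and all intervals between the aged groups include 0. Fcgr2b passed the filter only through the aged groups, and its young mean lies under 4. Its plotted values are therefore fitted differences near the limit of measurement.

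The same few animals stood out for several genes. Aged impaired replicate 2 was the highest of all 23 animals for Gpnmb, Fcgr2b, Fcgr3a, Lgals3 and Axl. Aged impaired replicate 4 was second for Gpnmb, Fcgr3a and Lgals3, and aged unimpaired replicate 6 was second for Fcgr2b and among the 3 highest for Gpnmb and Lgals3. Some of these arrays also stood apart over all probe sets. Aged impaired replicate 2 had the lowest mean correlation with the other arrays (0.9959), the highest array median (3.458) and a low RNA quality gap (2.03), and aged unimpaired replicate 6 had a mean correlation of 0.9964 and the largest gap of its group (2.39). Aged impaired replicate 4 had a mean correlation of 0.997 and a gap of 2.08. Without aged impaired replicate 2, Gpnmb was still higher in the aged impaired than in the young, by 1.45 (limma adjusted p = 0.000244), and Fcgr2b by 1.44 (limma adjusted p = 0.00369). Without aged unimpaired replicate 6, they were higher in the aged unimpaired by 1.06 (limma adjusted p = 0.0343) and 1.58 (limma adjusted p = 0.0217). Fcgr2b passed the filter only through the aged groups, so nothing is read from its calls here.

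Variation among animals of a group was compared across the 6 pairs of tested genes, as deviations from the group means, with two-sided permutation tests adjusted over the 6 pairs. Gpnmb and Fcgr2b varied together most closely, with Pearson's r = 0.78 (permutation p = 6e-05, adjusted 0.00036) and Spearman's rho = 0.71 (p = 0.00073, adjusted 0.00438; n = 23). Without aged impaired replicates 2 and 4, the animals farthest from the Gpnmb median, r was 0.59 and rho 0.51 (permutation adjusted p = 0.0483 and 0.0946). Among the 14 aged animals r was 0.82, and among the 9 young, with the exact permutation test, 0.54 (adjusted p = 0.822). Of these 9, only 1 reached a log2 value of 4 for Fcgr2b. The receptors Mertk and Axl had r = 0.54 (permutation adjusted p = 0.0297), but rho = 0.37 did not pass (adjusted p = 0.259). Their r was 0.69 without young replicates 4 and 9, the animals farthest from the Mertk median, and 0.77 among the aged animals. In the young it was 0.1 (exact permutation, adjusted p = 0.822). Aged impaired replicate 2, highest of all animals for Axl and second highest for Mertk, was among the animals that gave 0.69 and 0.77. The relation of Mertk and Axl without this animal was not tested. The other 4 pairs, each of Gpnmb or Fcgr2b with a TAM receptor, had r between 0.28 and 0.35, each with a permutation adjusted p of 0.213.

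**Figure D3:**
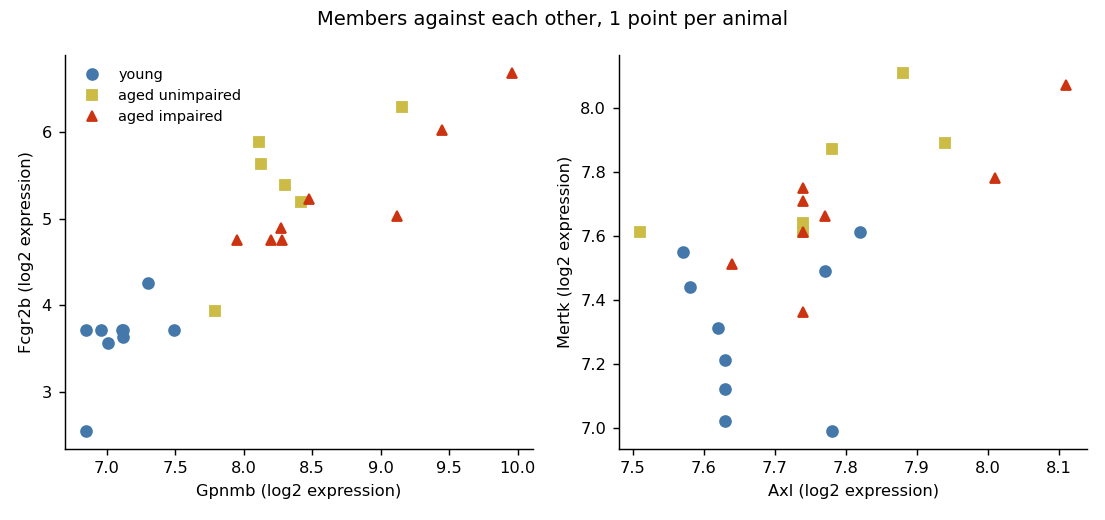
Log2 expression of Fcgr2b (y axis) against Gpnmb (x axis), and of Mertk (y axis) against Axl (x axis), 1 point per animal, marked by group. Aged impaired replicate 2, at 9.96 for Gpnmb and 6.69 for Fcgr2b, is the highest point of the first panel, and in the second r is 0.77 among the aged animals and 0.1 among the young.

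By their pattern over all 23 arrays, 3 genes were named for each tested gene among 8722 candidates, with r given as a measure of likeness that includes the difference between groups. Gpnmb was most like Rnaset2, a lysosomal ribonuclease (r = 0.97, and 0.9 within groups), Gfap, the intermediate filament of astrocytes (0.94 and 0.81), and Npc2, a lysosomal cholesterol carrier (0.94 and 0.79). Fcgr2b was most like Rnaset2 (0.9 and 0.74), Cd74, the invariant chain of antigen presentation (0.9 and 0.71), and Cttnbp2nl (0.89 and 0.73). Mertk was most like Tp53bp2 (0.87 and 0.71), Itih3 (0.87 and 0.81) and Timp2, an inhibitor of metalloproteinases (0.86 and 0.81). Axl was most like the claudin Cldn10 (0.81 and 0.8), the proteoglycan Sdc4 (0.8 and 0.75) and the lipid carrier Apoe (0.8 and 0.75). Rnaset2 stood first for both Gpnmb and Fcgr2b. No other gene was shared by any of the tested genes, and Mertk and Axl shared none with each other. Only 3 genes were named for each, so nothing is read from this lack of sharing.

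Markers of microglia, the resident phagocytes of the brain, moved with the same groups. The counts here stand beside the 10.2% and 2.03% of all genes called in the aged impaired and the aged unimpaired. Of 20 listed markers, 17 were on the array and 10 were tested, of which 8 rose in the aged impaired and 6 in the aged unimpaired, and 0 between the aged groups, in limma (0 with an unadjusted p under 0.05). Examples in the aged impaired were Aif1 at 1.07 ± 0.12 (SE, limma adjusted p = 1.7e-05), P2ry12 at 0.71 ± 0.1 (0.000285) and Csf1r at 0.58 ± 0.1 (0.000962). Their mean level was 7.44 to 8.05 in the aged impaired, 7.43 to 7.71 in the aged unimpaired and 6.85 to 7.22 in the young, so the young lay apart from both. The other 7 on the array were under the filter, among them Ptprc (at most 2.5 in any group mean), Irf8 (3.21) and Hpgds (2.19), as were Cx3cr1 (2.43) and Itgam (2.43). Of astrocyte markers, 4 of 11 rose in the aged impaired and 2 of 11 in the aged unimpaired, with a mean level of 10.97 to 11.3, 11 to 11.24 and, in the young, 10.74 to 11.05. Markers of border macrophages (9 on the array, Cd163 at 2.19 and Mrc1 at 2.2) and of monocytes and neutrophils (7 on the array, Ccr2 at 2.19) all lay under the filter in every group. Of 10 oligodendrocyte markers, 2 fell in the aged impaired and 1 in the aged unimpaired. In both, limma called 0 of 7 markers of endothelial cells and pericytes (0 and 1 with an unadjusted p under 0.05), 0 of 5 of meninges and fibroblasts (2 and 1) and 0 of 2 of lymphocytes (1 and 0). The lymphocyte markers were dim, with group means of at most 4.2 for Cd3e and 4.86 for Cd2.

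Relations of the 4 genes to the microglia and astrocyte means, again within groups, were chosen after the values were seen, and p-values were adjusted over these 8 relations. Against the microglia mean, r was 0.72 for Gpnmb (rho = 0.63, permutation adjusted p = 0.00446 and 0.0171) and 0.72 for Fcgr2b (rho = 0.64, 0.00205 and 0.0092). For Mertk r was 0.49 (rho = 0.43, permutation adjusted p = 0.0263 and 0.0679) and for Axl 0.26 (permutation adjusted p = 0.313). The Gpnmb relation rested on aged impaired replicates 2 and 4, without which r was 0.4 (permutation adjusted p = 0.123), and for Fcgr2b r was 0.54 without its 2 farthest animals (0.0459). Against the astrocyte mean, r was 0.67 for Mertk (rho = 0.65, permutation adjusted p = 0.00205 and 0.00624) and 0.68 for Axl (rho = 0.5, 0.00205 and 0.0389). Without the 2 farthest animals r was 0.6 for Mertk (0.0459) and 0.47 for Axl (0.0938), which no longer passed. For Mertk these were young replicates 4 and 9, so aged impaired replicate 2, with the highest astrocyte mean (11.3), stayed in. Gpnmb and Fcgr2b also passed by r with the astrocyte mean, at 0.56 and 0.48 (permutation adjusted p = 0.0194 and 0.035), but not by rho, at 0.44 and 0.37 (0.0745 and 0.104). Among the 14 aged animals r with the microglia mean was 0.86 for Gpnmb and 0.75 for Fcgr2b, and r with the astrocyte mean was 0.68 and 0.64 for these and 0.71 and 0.8 for Mertk and Axl. Among the 9 young, r with the microglia mean was -0.08 for Gpnmb and 0.63 for Fcgr2b, and 0 of the 8 relations passed in the exact permutation test. Only 1 of these 9 reached a log2 value of 4 for Fcgr2b. Young replicate 2, the lowest for Fcgr2b at 2.55, also had the lowest microglia mean (6.85). Whether the number of microglia or astrocytes in the tissue has a part in the differences of the 4 genes was not tested.

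**Figure D4:**
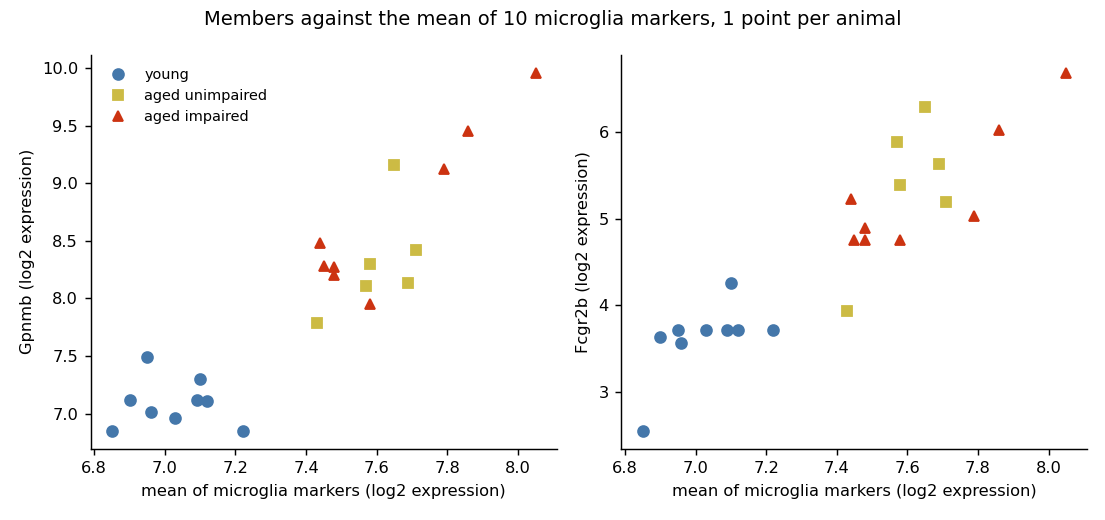
Log2 expression of Gpnmb and Fcgr2b (y axes) against the mean log2 expression of 10 microglia markers (x axes), 1 point per animal, marked by group. On the x axis the young reach 7.22 and the aged start at 7.43, and aged impaired replicate 2 is highest on both axes at 8.05 for the marker mean.

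Partner genes of these pathways were read from lists, each gene by its brightest probe set, beside the same 8726 genes (10.2% and 2.03% called), with median differences over all of them of -0.02 and 0. Between the aged groups 0.435% of genes were called, and 0 of those on the 7 lists in limma, where an unadjusted p under 0.05 was found for 3 of 21 genes of signalling and actin, 1 of 24 of the phagosome and lysosome, and 0 of the others. Among Fc receptors and their chains, 2 of 9 genes on the array could be tested. Fcer1g, the signalling chain of the activating Fc receptors, was higher by 0.92 ± 0.11 (SE, 1.89-fold, limma adjusted p = 7.65e-05) in the aged impaired. In the aged unimpaired it was higher by 0.75 ± 0.12 (1.69-fold, limma adjusted p = 0.00257). The other, Fcgrt, the transport receptor for IgG, differed by 0.21 ± 0.15 and 0.33 ± 0.16 and did not pass.

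No tested partner of the TAM receptors was called. Of 4 tested (Tyro3, Gas6, Adam17 and Socs1), limma called 0 in either aged group against the young, and 0 had an unadjusted p under 0.05. Socs1 had a mean of 4.22 in each group, just over the filter, so its result carries little information. Tyro3, the remaining TAM receptor, differed by 0.09 ± 0.05 in the aged impaired and -0.02 ± 0.06 in the aged unimpaired. The ligand Gas6 differed by 0.11 ± 0.06 and 0.06 ± 0.07. The other ligand, Pros1, lay at 2.2, the floor of the scale, so it could not be tested.

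Of 11 tested phagocytic and scavenger receptors, 3 rose in the aged impaired and 2 in the aged unimpaired, and 0 fell (median differences 0.08 and 0.04). Tyrobp and Itgb2 each reached a log2 value of 4 on 2 of 9 young arrays and had young means of 3.79 and 3.86. They therefore passed the filter through the aged groups, and their folds are bounds of the group means against 4, without the spread among animals. Nothing is read from their part in the count. Apart from them, only Itgav rose, in both aged groups. Tyrobp, the adaptor of Trem2 and other myeloid receptors, was at least 1.41-fold higher in the aged impaired (limma adjusted p = 0.00387) and at least 1.34-fold higher in the aged unimpaired (0.0307). Itgav, the integrin chain that binds Mfge8, was higher by 0.52 ± 0.11 (SE, limma adjusted p = 0.00605) and 0.52 ± 0.12 (0.0229). Itgb2, the beta chain of the complement receptors, was at least 1.4-fold higher in the aged impaired (limma adjusted p = 0.0457), and did not pass in the aged unimpaired (0.366).

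Of 5 tested signals that hold phagocytosis back, 2 rose in the aged impaired, and 1 rose and 1 fell in the aged unimpaired (median differences 0 and 0.05). Ptpn11, a phosphatase recruited by inhibitory receptors among others, was higher by 0.37 ± 0.06 (SE, limma adjusted p = 0.0011) in the aged impaired and by 0.35 ± 0.07 (0.00791) in the aged unimpaired. Cd33, an inhibitory sialic acid receptor, was higher by 0.3 ± 0.08 in the aged impaired (limma adjusted p = 0.0157). Its difference of 0.19 ± 0.08 in the aged unimpaired did not pass (limma adjusted p = 0.248). Cd200, a neuronal ligand that quiets microglia, was lower in the aged unimpaired, by -0.19 ± 0.05 (limma adjusted p = 0.0444), while its difference of -0.09 ± 0.05 in the aged impaired did not pass. Of 21 tested genes of phagocytic signalling and actin, 3 rose in the aged impaired: Arpc1b, a subunit of the Arp2/3 complex (0.58 ± 0.13, limma adjusted p = 0.00973), the kinase Prkcd (0.36 ± 0.07, 0.00404) and the cholesterol exporter Abca1 (0.14 ± 0.04, 0.0295). This count lay near the 10.2% of all genes called there, so it is not read as a result about the list. Median differences over the 21 were 0 in the aged impaired and 0.04 in the aged unimpaired. In the aged unimpaired limma called 0 of the 21, and 4 had an unadjusted p under 0.05. There Arpc1b differed by 0.47 ± 0.15, Prkcd by 0.13 ± 0.08 and Abca1 by 0.06 ± 0.04.

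Genes of the phagosome and lysosome gave 9 rises and 1 fall among 24 tested in the aged impaired, and 5 rises and 0 falls in the aged unimpaired (median differences 0.09 and 0.12). The protease Ctsz was higher by 1.36 ± 0.19 (SE, 2.56-fold, limma adjusted p = 0.000205) and 1.25 ± 0.2 (2.38-fold, 0.00229). The lysosomal membrane protein Laptm5 was higher by 0.86 ± 0.14 and the cholesterol carrier Npc2 by 0.68 ± 0.1 in the aged impaired (limma adjusted p = 0.00111 and 0.000266). The protease Ctss was higher by 0.59 ± 0.1 (limma adjusted p = 0.00121). In the aged unimpaired these 3 were also called. The lipoprotein lipase Lpl was the 1 gene that fell, by -0.39 ± 0.08 in the aged impaired (limma adjusted p = 0.00452). Its difference of -0.3 ± 0.09 in the aged unimpaired did not pass (limma adjusted p = 0.0681). Among 4 tested galectins and their partners, Lgals1, a galectin of many cell types, rose by 0.78 ± 0.21 (SE, 1.72-fold, limma adjusted p = 0.022) in the aged impaired and by 0.99 ± 0.23 (1.99-fold, 0.0225) in the aged unimpaired. The microglia markers described above rose in the same groups, and their part in these counts was not tested.

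**Figure D5:**
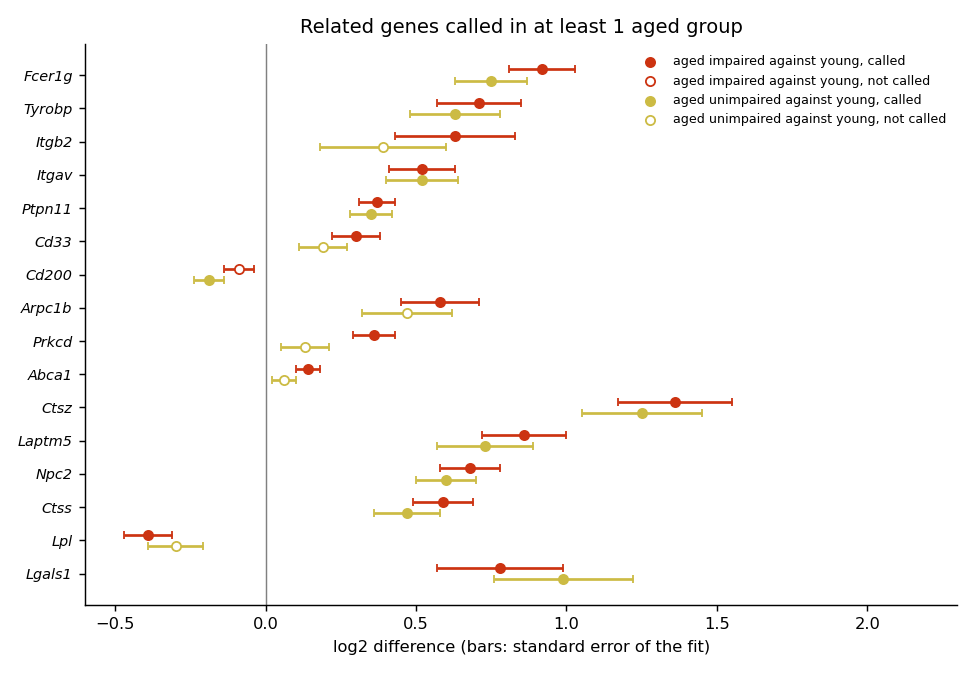
Log2 difference from the young (x axis) of the 16 named genes of the 7 lists in each aged group, with the SE of the limma fit as bars and called values filled. The largest differences are those of Ctsz at 1.36 and 1.25, and Cd200 and Lpl lie below 0. The young means of Tyrobp and Itgb2 lie under 4, so their plotted values are fitted differences near the limit of measurement.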

How the data were processed

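The authors deposited log2 expression values made with GCRMA, per the submitters' processing notes. The GCRMA version is not given in the sources used here. GCRMA reduces shifts of a whole array, but the array medians still differed by group. They were 3.429 to 3.458 in the aged impaired, 3.412 to 3.425 in the aged unimpaired and 3.388 to 3.418 in the young. Every aged impaired array thus lay above every young one. With GCRMA, dim values end on a common floor, so differences near it are compressed. The table held 31099 probe sets, of which 57 controls were left out. Of the rest, 20826 had 1 gene symbol in the array's annotation, 436 several and 9780 none, and only the first were named. Arrays give no read depth, and their number limits the precision. Per the labels' protocols, the hippocampal fields were dissected apart, and RNA was extracted with Trizol and RNeasy columns.

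Probe sets that reached log2 4 on 6 or more arrays were fitted with limma 3.58.1 (R 4.3.3, statmod 1.5.0), with 1 mean per group over all 23 arrays. Two-sided eBayes tests had 20 residual and 2.35 prior degrees of freedom and were adjusted by Benjamini-Hochberg over 14647 probe sets, with calls at adjusted p of 0.05 or less. Correlations within groups used 100000 permutations (scipy 1.17.1), or the exact permutation test for the 9 young. The labels number the animals as biological replicates. The fit had no replicate block. The names of the control rows behind the RNA quality gap (GAPDH 5' minus GAPDH M) may be out of register.

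The genes, lists and tests were chosen with earlier results of these data known. Named were all probe sets of the 7 genes, the 3 genes most like each tested one, and called genes of each list, at most 4 rises and 4 falls. Beside these, some list genes that were not called or not measured are named as partners or defining markers, chosen after their values were seen. Lists held 288 genes, 244 of them on the array. Alternatives covered the filter, the floor, normalization, weights, the spread, the arrays fitted, the replicate block, the RNA quality gap, the probe set per gene and leaving out each array. Promoters came from RefSeq (GRCr8).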

Additional observations from a re-analysis of the deposited data

Results flagged for a closer look

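A sample far from the others of its group was found in 8 of the 21 groups of 6 to 9 animals tested over 7 probe sets of 6 genes, since Cd68 had 1 value on all arrays, where chance gives about 1 in 20. Of the 8, 7 are in probe sets under the filter on low values, where many arrays share 1 value. Lgals3 stood at 5.72 in aged impaired replicate 2 (next 4.29) and at 2.96 in young replicate 9 (next 3.33). Fcgr3a stood at 3.25 in aged unimpaired replicate 2 (next 3.0) and at 2.46 in young replicate 7 (next 2.78). The second Mertk probe set stood at 2.56 in aged impaired replicate 5, at 2.55 in aged unimpaired replicate 7 and at 2.81 in young replicate 6. Fcgr2b, the 1 tested gene among them, stood at 2.55 in young replicate 2 (next 3.56).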

How the results depend on the processing

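In the aged impaired, Gpnmb and Fcgr2b were called in all settings, with differences of 1.45 to 1.73 and 1.24 to 1.72. Fcgr2b passed the filter only through the aged groups, so nothing is read from its calls, here or in the counts below. When 1 array was left out, 2 to 3 of the 4 tested genes were called in each aged group against the young, 0 between the aged groups, and 3 in both aged groups together. With the replicate number as a block, the number called in the aged unimpaired fell from 3 to 0 (Gpnmb 1.2, limma adjusted p = 0.0761; Fcgr2b 1.73, 0.059; Mertk 0.44, 0.059), and no other call of these genes changed. The labels do not say that the numbers pair animals, the deviations of 20 same-numbered pairs had a median r of -0.01, and 3 of 23 arrays correlated best with an array of their own number. The block gave 86 calls over all probe sets in the aged unimpaired, 870 in the aged impaired, 0 between the aged groups and 527 in both together, against 302, 1429, 114 and 1010. Without the filter these were 126, 768, 2 and 509. Array weights gave 672 in the aged unimpaired and 222 between the aged groups, quantile normalization 180 between them, centring 2352 in the aged impaired, and the RNA quality gap 937 in the aged impaired and 0 between the aged groups. Fitting only the groups compared also gave 0 between the aged groups. With centring, rises were 410 of 1510 calls in both together, against 489 of 1010, and 85 of 117 between the aged groups, against 99 of 114. The sign between the aged groups turned for Fcgr2b with array weights (0.07) and without aged unimpaired replicate 6 (0.06; -0.41 to 0.06 leaving out 1 array), and for Axl without aged unimpaired replicate 4 (0.0; 0.0 to 0.08 leaving out 1 array). In the young alone, an alternative chosen after seeing the data, 0 of 6 pairs passed, against 2, and Gpnmb and Mertk turned to r = -0.14. The cause of these changes was not tested. Fcgr3a, Lgals3 and Cd68 lay too near the floor for a test.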
